A study of Mus musculus with 2 samples.

Results

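Ptgds, Fabp7, Fabp5 and Fabp3 are 4 genes for small proteins that hold fatty acids or other lipids in an inner pocket. They were taken by symbol, with earlier results of these data known, from the 32285 genes counted in single B16 F10 cells, and all 4 were found. B16 F10 cells come from a mouse melanoma and produce melanin. They had grown for 7 days from a sparse seeding of 100 cells per cm2 in DMEM with much glucose and 10% serum. Flow cytometry then divided them by side scatter, read as pigment content, into low pigment and high pigment cells. Neither label names any further treatment or allele, and there was 1 single cell library per sort, from the 3' kit of 10x Genomics. The kit reads 1 end of polyadenylated transcripts and gives every captured molecule its own identifier (UMI), so levels are given as CPM, a gene's UMIs scaled to 1e6 UMIs of the same cells, and are not divided by transcript length.

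Ptgds encodes lipocalin-type prostaglandin D synthase, a secreted enzyme that turns prostaglandin H2 into prostaglandin D2 and also carries retinoids and other lipophilic molecules. The fatty acid binding proteins (FABPs) are a family of cytosolic carriers that take up long-chain fatty acids and hand them to enzymes, membranes and nuclear receptors. Fabp7 is the brain type, known from radial glia, glial precursors, melanocytes and melanoma. Fabp5 is the epidermal type, abundant in keratinocytes and known to carry ligands to the receptor PPAR-delta. Fabp3 is the heart and muscle type. Sox10 is a transcription factor of the neural crest, glia and melanocytes, and Tyr, Tyrp1 and Dct encode the enzymes of the melanin pathway.

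The low pigment library held 1900 cells with 32437194 UMIs and the high pigment library 2136 cells with 28848691 UMIs, with medians of 16019.5 and 12557 UMIs per cell. There is no replicate, so no p-value or test is given. Every interval is a 95% interval of counting error only, which does not cover variation among cultures or sorts. Intervals of levels and ratios also leave out variation among cells. No barcode sequence occurred in both libraries among these cells, and 2 did among all 5818 barcodes. All 7 melanocyte markers were present, summing to 11243 CPM in the low and 14732 CPM in the high pigment library. Of the cell types in which FABPs are best known, all 5 keratinocyte markers had 3 UMIs or fewer per library, and the summed level was 0.987 and 0.520 CPM for the 5 adipocyte markers and 4.22 and 8.53 CPM for the 6 muscle markers. The 8 Schwann cell markers summed to 266 and 191 CPM, with Mbp (5006 and 2900 UMIs) as the largest part. The 6 radial glia markers summed to 45.6 and 38.3 CPM, with Aldh1l1 (854 and 688 UMIs) and Gfap (621 and 416 UMIs) as the largest parts. Aqp4 had 2 and 1 UMIs, and Sox2 had 0 UMIs in both. Pax6 and Slc1a3 had 1 UMI in the low and 0 in the high pigment library.

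Ptgds and Fabp7 made up a larger share of the RNA in the high pigment library, while Fabp5 and Fabp3 differed less. Ptgds (ENSMUSG00000015090; chromosome 2, 25466709 to 25470046, minus strand, build GRCm38) had 51885 UMIs or 1600 CPM (1586–1613) in the low pigment and 69440 UMIs or 2407 CPM (2389–2425) in the high pigment library, a ratio of 1.505 (1.49–1.52). Fabp7 (ENSMUSG00000019874; chromosome 10, 57784881 to 57788450, plus strand) had 1537 UMIs or 47.4 CPM (45.0–49.8) and 2878 UMIs or 99.8 CPM (96.2–103), a ratio of 2.11 (1.98–2.24). Neither pair of counting intervals overlapped, but at this depth such intervals are narrow. Of the melanin enzymes, those of Tyrp1 and Dct did not overlap either, and those of Tyr did. The share of all genes without overlap was not counted, here or for the phases and clusters below.

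Fabp5 (ENSMUSG00000027533; chromosome 3, 10012548 to 10016607, plus strand) had 999 CPM (988–1010) and 973 CPM (962–985), a ratio of 0.974 (0.959–0.990). Fabp3 (ENSMUSG00000028773; chromosome 4, 130308595 to 130315463, plus strand) had 27.7 CPM (25.9–29.6) and 32.9 CPM (30.8–35.1), a ratio of 1.19 (1.08–1.30). With a limit of 0.32 on the size of the log2 ratio, 2 of the 4 members were called higher with high pigment and 0 lower. Of all 7849 genes with a mean of at least 10 CPM, 10.9% were called higher and 23.4% lower at that limit, and nothing is drawn from the members' count, since this difference entered their choice. At 1.5-fold, where Ptgds and Fabp7 also stood, 3.25% of all genes were higher and 8.08% lower. By its ratio Fabp7 ranked 40 and Ptgds 249 from the top of the 7849 genes, and Fabp3 and Fabp5 ranked 1210 and 3517. By level Ptgds ranked 84 and Fabp5 152, so both were among the abundant transcripts of these cells, against 2138 for Fabp7 and 4528 for Fabp3.

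These ratios compare shares of RNA. Counted as UMIs per cell with no scaling, Ptgds had 27.3 and 32.5 UMIs per cell (ratio 1.19) and Fabp7 0.809 and 1.35 (ratio 1.67). Fabp5 had 17.1 and 13.1 UMIs per cell (ratio 0.771) and Fabp3 0.473 and 0.444 (ratio 0.939). On that scale Ptgds did not reach the 0.32 limit, Fabp3 was no longer higher in the high pigment library, and Fabp5 was lower past that limit. The log2 ratio of the median gene was −0.080, and with it set to 0 the ratio of Fabp5 turned from 0.974 to 1.03. With that scaling 1243 genes were higher past the 0.32 limit and 1356 lower, against 852 and 1838 by total UMIs.

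All 4 genes are protein coding, and Fabp5 lies beside Pmp2, Fabp9, Fabp4 and Fabp12, a row of family genes spanning 289 kb of chromosome 3. The annotation also lists the processed pseudogenes Fabp5l2 and Fabp3-ps1, and the handling of reads that match both a gene and its copy is not stated, so the counts of Fabp5 and Fabp3 are uncertain to that extent. Of the 10 genes of the FABP family only Fabp3, Fabp5 and Fabp7 reached 10 CPM. Pmp2, the myelin FABP, had 63 and 59 UMIs, and Fabp4, the adipocyte FABP, 7 and 11 UMIs in the low and high pigment library. Fabp1, Fabp9 and Fabp12 had 0 UMIs in both, which allows up to 0.0925 CPM in the low and 0.104 CPM in the high pigment library. Fabp2 had 2 and 0 UMIs and Fabp6 4 and 3. Fabp5 RNA was thus abundant while that of its neighbours in the row was at or near 0.

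The promoter stretches below, from 250 bases before to 50 after the RefSeq start (build GRCm38.p6, given 5′ to 3′ on the gene's strand), show which letters known from pigment and glial promoters stand near the starts of these genes. Promoters of 3 of the 4 members were in the table used. Capitals mark every match on either strand to the SOX motifs ACAAAG and ACAATG, the E-box motifs CATGTG and CACGTG bound by MITF and related factors, and TTGGC, one arm of the NFI site. No motif overlapped another in these 3 stretches.
Ptgds, chr2:25469700-25469999, minus strand: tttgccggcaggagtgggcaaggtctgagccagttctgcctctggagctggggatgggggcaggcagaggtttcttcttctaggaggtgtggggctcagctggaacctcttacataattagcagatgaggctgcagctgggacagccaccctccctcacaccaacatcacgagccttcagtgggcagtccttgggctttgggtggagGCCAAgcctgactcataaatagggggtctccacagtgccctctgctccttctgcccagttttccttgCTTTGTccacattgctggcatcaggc
Fabp7, chr10:57784673-57784972, plus strand: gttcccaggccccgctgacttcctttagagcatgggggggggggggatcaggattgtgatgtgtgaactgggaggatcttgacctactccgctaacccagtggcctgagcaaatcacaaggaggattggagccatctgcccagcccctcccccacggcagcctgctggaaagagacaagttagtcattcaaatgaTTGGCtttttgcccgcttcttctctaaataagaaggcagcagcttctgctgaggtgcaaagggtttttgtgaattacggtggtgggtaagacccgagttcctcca
Fabp3, chr4:130308488-130308787, plus strand: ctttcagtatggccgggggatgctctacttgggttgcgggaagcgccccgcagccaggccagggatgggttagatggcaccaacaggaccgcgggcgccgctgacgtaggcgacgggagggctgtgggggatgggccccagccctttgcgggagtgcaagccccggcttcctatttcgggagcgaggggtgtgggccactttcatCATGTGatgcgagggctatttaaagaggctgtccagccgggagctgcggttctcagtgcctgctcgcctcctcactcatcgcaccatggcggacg

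The Ptgds stretch held 1 SOX motif, 25 bases after the start, and 1 NFI arm, 43 bases before it, both on the opposite strand. The Fabp7 stretch held 1 NFI arm, 55 bases before the start, and no SOX or E-box motif. The Fabp3 stretch held the E-box CATGTG 45 bases before the start. The same E-box stood in all 3 melanin enzyme promoters, 21 bases before the start of Tyr, 46 before that of Tyrp1 and 150 and 232 before that of Dct. ACAAAG, the SOX motif of the Ptgds stretch, stood 190 bases before the start of Tyrp1 and 192 and 141 before that of Dct. ACAATG stood 167 bases before the start of Dct. TTGGC also stood in the Tyrp1 and Dct promoters, and Tyr held neither a SOX motif nor TTGGC. Of 32851 promoter stretches in the table, 14.2% held CATGTG, 18.7% ACAAAG, 12.6% ACAATG, 7.15% CACGTG and 46.7% TTGGC. Distances are counted from the RefSeq starts. The gene positions given further above come from another annotation and begin further upstream for Ptgds, Fabp7 and Fabp3. By those positions the NFI arm of Ptgds and the E-box of Fabp3 lie inside the gene. A match is a description of letters and not of binding.

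Across the cell cycle phases of the authors' cell table, Ptgds made up the largest share of RNA in G1 in both libraries. Its level in the low pigment library was 1913 CPM in G1, 1474 in S and 1398 in G2M. In the high pigment library it was 2842 CPM in G1, 2428 in S and 2131 in G2M. As a share of RNA, every phase of the high pigment library thus had more Ptgds than any phase of the low pigment library. The counting intervals did not overlap, but they are narrow at this depth, and the share of all genes without overlap was not counted.

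Fabp7 followed another order. In the low pigment library it had 58.4 CPM (54.0–63.1) in G1, 39.4 (36.0–43.1) in S and 45.1 (40.9–49.7) in G2M. In the high pigment library it had 101 CPM (94.1–108) in G1, 77.8 (70.9–85.2) in S and 109 CPM (103–114) in G2M. S was the lowest phase in both libraries, and G1 and G2M of the high pigment library had overlapping intervals. The G2M level was 0.772 of the G1 level (0.681–0.876) in the low and 1.08 (0.992–1.17) in the high pigment library, a difference that was not tested.

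Fabp5, whose share of RNA hardly differed between the sorts, made up its largest share in S in both libraries, with 1077 CPM in the low and 1044 CPM in the high pigment library. Its S level was 1.14 times that of G1 (1.11–1.17) and 1.13 times (1.09–1.16). Fabp3 was lowest in G2M, at 23.6 and 29.6 CPM, which was 0.781 of its G1 level (0.654–0.930) in the low and 0.782 (0.675–0.906) in the high pigment library. These orders hold for shares of RNA, and some turned per cell with no scaling. Fabp5 then had more UMIs per cell in G2M than in S (19.6 and 19.0 in the low, 14.5 and 13.2 in the high pigment library). In the low pigment library G2M was also above G1 for Ptgds (28.7 and 27.7), Fabp7 (0.926 and 0.846) and Fabp3 (0.484 and 0.438).

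**Figure D1:**
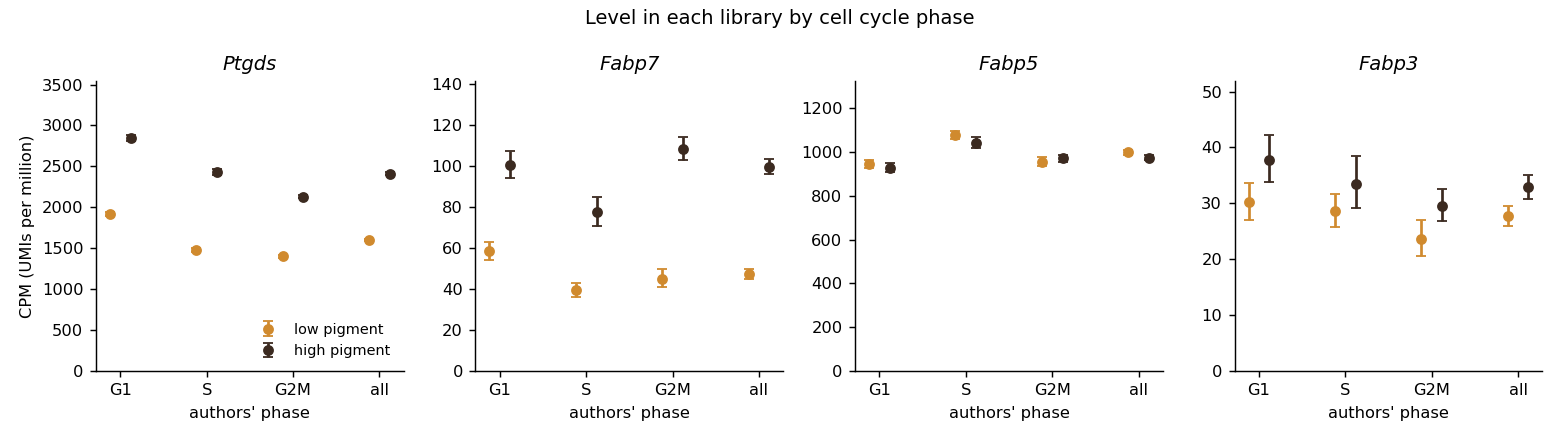
CPM of each gene by the authors' cell cycle phase and over all cells, in the low pigment (orange) and the high pigment library (brown), with points for the level and bars for 95% Poisson intervals of counting error. On this scale Ptgds is highest in G1 in both libraries (1913 and 2842 CPM), Fabp7 is above the low pigment levels in every phase of the high pigment library, and Fabp5 is highest in S.

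Within a phase the ratio of CPM in high to low pigment kept its direction for Ptgds, Fabp7 and Fabp3, though per cell with no scaling Fabp3 turned in S (0.424 in the high and 0.504 in the low pigment library) and G2M (0.440 and 0.484). It was 1.49 (1.46–1.51) in G1, 1.65 (1.61–1.68) in S and 1.52 (1.49–1.56) in G2M for Ptgds. For Fabp7 it was 1.72 (1.55–1.91) in G1, 1.97 (1.74–2.24) in S and 2.41 (2.16–2.69) in G2M. Per cell with no scaling, Ptgds had 34.8 UMIs in the high and 27.7 in the low pigment library in G1. In S it had 30.7 and 26.0, and in G2M 31.7 and 28.7. On the CPM scale the Fabp7 ratio was above 1.5 in each phase. Counted without scaling, Fabp7 had 1.23 UMIs per cell in the high and 0.846 in the low pigment library in G1. In S these were 0.983 and 0.695, and in G2M 1.62 and 0.926. The high pigment library had 44.4% of its cells in G2M against 23.5% in the low pigment library, and the part of the phase mix was not tested. Fabp3 had ratios of 1.252 (1.07–1.46) in G1, 1.17 (0.983–1.40) in S and 1.254 (1.06–1.48) in G2M, just past the 0.32 limit in G1 and G2M. Fabp5 had 0.980 in G1 (0.952–1.01), 0.969 in S (0.941–0.999) and 1.02 in G2M (0.989–1.04). Without scaling, Fabp5 had fewer UMIs per high pigment cell in each phase. There were 11.4 in the high and 13.7 in the low pigment library in G1, 13.2 and 19.0 in S, and 14.5 and 19.6 in G2M.

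The authors' 4 clusters divided along both sort and cycle. Clusters 0 and 3 held 97.7% and 96.5% high pigment cells, and clusters 1 and 2 held 4.48% and 5.19%. Cells in G1 made up 14.5% of cluster 0, 69.4% of cluster 1, 0.461% of cluster 2 and 89.5% of cluster 3. Which genes entered the clustering is not stated, so the levels below describe the clusters and test nothing.

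Ptgds ran from 1391 CPM in cluster 2 through 1845 in cluster 1 and 2322 in cluster 0 to 2698 in cluster 3. Fabp7 had the same order, with 40.1 CPM (37.1–43.3) in cluster 2, 56.3 (52.7–60.1) in cluster 1, 97.2 (93.2–101) in cluster 0 and 108 (99.6–117) in cluster 3, where the intervals of clusters 0 and 3 overlapped (cluster 0 to cluster 3 ratio 0.900, 0.823–0.986). Fabp5 stayed between 957 CPM in cluster 3 and 1022 CPM in cluster 2. Fabp3 lay between 26.6 CPM in cluster 2 and 35.2 CPM in cluster 3, and each pair of neighbours in its order overlapped.

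The few cells that sat in clusters of the other sort were read by their own library. The 48 high pigment cells of cluster 1 had 2774 CPM of Ptgds (2633–2920) against 1813 in the 1023 low pigment cells of that cluster. The 45 high pigment cells of cluster 2 had 2026 CPM (1908–2151) against 1370 in its 822 low pigment cells. In both clusters the high pigment cells were above their low pigment neighbours. In the other direction, the 36 low pigment cells of cluster 0 had 1769 CPM (1665–1878), below the 2337 CPM of its 1520 high pigment cells. The 19 low pigment cells of cluster 3 had 2632 CPM (2439–2837), overlapping the 2701 CPM (2657–2745) of its 523 high pigment cells.

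Fabp7 in the same cells had fewer counts. It was 80.5 CPM (58.0–109) in the high pigment cells of cluster 1 against 55.5 (51.8–59.3) in the low pigment cells, and 61.5 (42.4–86.4) against 39.4 (36.4–42.6) in cluster 2. In cluster 0 it was 57.4 CPM (40.0–79.9) in the low against 98.3 (94.2–102) in the high pigment cells. In cluster 3 it rested on 9 UMIs in the low pigment cells, 34.5 CPM (15.8–65.5), against 112 CPM (103–121). As a share of RNA the level was higher in the high pigment cells of each of the 4 clusters, with ratios of 1.71 (1.23–2.46), 1.45 (1.04–1.98), 1.56 (1.07–2.22) and 3.24 (1.69–7.11) in clusters 0 to 3. Counted per cell with no scaling, Fabp7 turned in cluster 2 (0.733 UMIs per high and 0.770 per low pigment cell), and Ptgds turned in cluster 2 (24.2 and 26.8) and cluster 3 (27.7 and 36.2). Fabp3 kept no single direction as a share of RNA, with ratios of 0.762 (0.516–1.17), 0.601 (0.273–1.15), 1.20 (0.693–1.95) and 2.36 (0.906–8.74) in clusters 0 to 3.

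**Figure D2:**
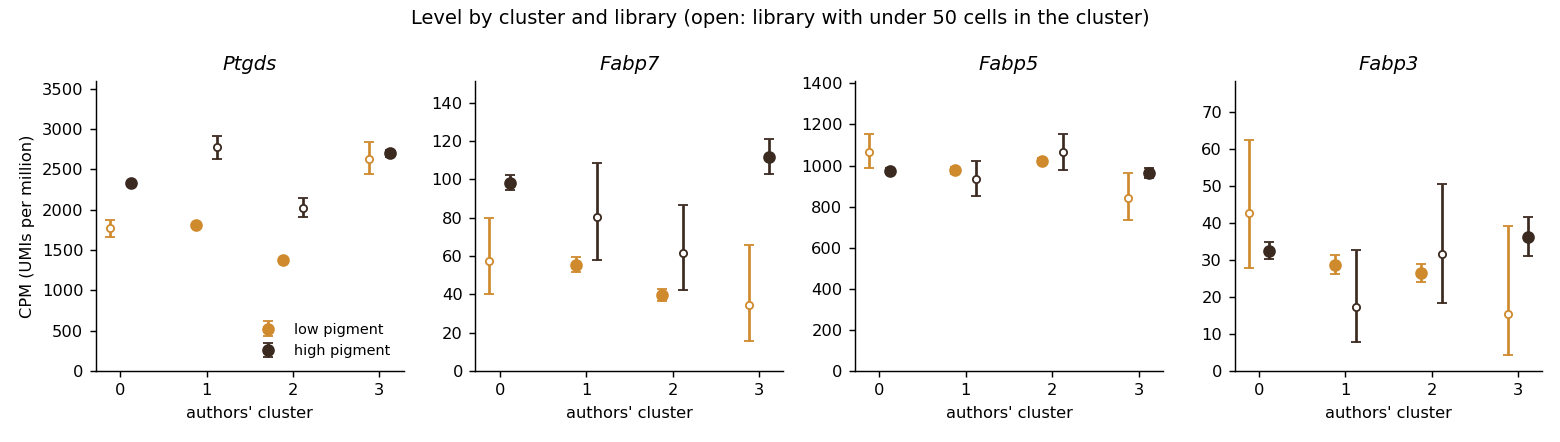
CPM of each gene in the authors' clusters 0 to 3, split by library (orange low pigment, brown high pigment), with 95% Poisson intervals of counting error and open circles where a library has under 50 cells in the cluster. On the CPM scale, high pigment cells are above low pigment cells for Fabp7 in every cluster and for Ptgds in clusters 0, 1 and 2 (per cell unscaled, both turn in cluster 2), and the Ptgds intervals overlap in cluster 3.

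Cells were compared one by one after each was thinned at random to 7500 UMIs, the depth that every cell reached. Ptgds was found in 98.6% of low pigment (98.0–99.1) and 99.9% of high pigment cells (99.7–100.0), with medians of 10 and 16 UMIs and 5th to 95th percentiles of 2 to 32 and 4 to 40. More UMIs than the low pigment median were found in 72.9% of high pigment cells (71.0–74.8) and in 46.1% of low pigment cells. The 2 distributions overlapped widely, shifted by 6 UMIs at the median.

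Fabp7 was found in 28.1% of low pigment (26.1–30.2) and 48.4% of high pigment cells (46.2–50.5), with 0 as the median in both and at most 5 and 7 UMIs in a cell. Before thinning the shares were 49.6% and 64.2%. Fabp3 was found in 16.9% (15.2–18.7) and 20.7% (19.0–22.5), and in 33.6% and 31.8% before thinning, so the order of its shares depended on depth. Fabp5 was found in 99.3% of both, with a median of 7 UMIs in both. No cell type that should lack these genes was sorted, so the share that free RNA alone would give was not measured.

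**Figure D3:**
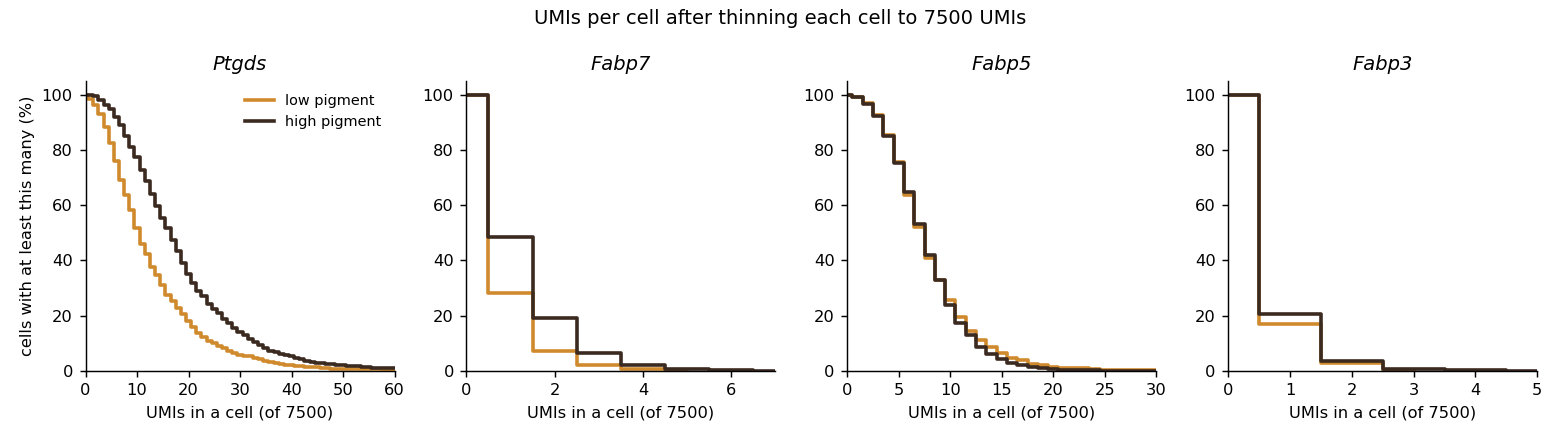
Percent of cells (y axis) with at least the number of UMIs on the x axis, for each gene after thinning every cell to 7500 UMIs, in the low pigment (orange) and high pigment (brown) library. The Ptgds curve of the high pigment cells lies to the right (median 16 against 10 UMIs), the Fabp7 curves part at 1 UMI (48.4% against 28.1% of cells), and the Fabp5 curves nearly coincide.

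Ptgds varied more between cells than other genes of its level. Its variance over mean, which is 1 for counting noise alone, was 7.51 in the low and 7.58 in the high pigment library. None of the 73 and 75 genes within 1.5-fold of its mean had a larger value, and their medians were 1.62 and 2.21. The tenth of cells with most Ptgds held 27.6% and 24.0% of its UMIs. Fabp5, with 2.43 and 1.97, lay above the medians of genes of its level (1.39 and 1.57), and 7 of 85 and 22 of 103 such genes varied more. Fabp7 had 1.37 and 1.33 against medians of 1.05 and 1.08, with 30 of 2155 and 65 of 1255 genes above it. Fabp3 was closest to counting noise at 1.12 and 1.20.

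Across cells of the same library Ptgds went with the melanin genes. With the summed UMIs of Tyr, Tyrp1 and Dct it had a Spearman's rho of 0.357 over 1900 low pigment cells and 0.286 over 2136 high pigment cells. Among 3044 genes with a mean of at least 50 CPM these were the ranks 3 and 5 from the top, where the 95th percentile of all genes was 0.084 and 0.078. With Dct alone the rho was 0.357 and 0.280, with Tyrp1 0.129 in both, and with Tyr 0.213 and 0.091. Cells of a library share its depth, free RNA and phase mix, and all rhos are given as descriptions with no p.

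In UMIs per cell of 7500, Dct was higher in each next Ptgds quartile of cells, with means of 37.5, 41.1, 47.2 and 55.7 in the low pigment library. In the high pigment library the means were 51.2, 58.0, 63.8 and 68.7. Tyrp1 went from 12.3 in the lowest to 15.3 in the highest quartile in the low, and from 16.1 to 18.7 in the high pigment library. Tyr went from 0.751 to 1.37 and from 0.810 to 1.13. All 3 enzymes were thus higher where Ptgds was higher, in both sorts, also Tyr, whose level differed between the libraries by less than counting error (126 and 122 CPM, ratio 0.971, 0.928–1.02).

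Other properties of the cells moved along with Ptgds. The share of G1 cells was 32.6% in the lowest and 52.7% in the highest quartile of the low pigment library, and 25.6% and 47.3% in the high pigment library. Within single phases the rho with the summed enzymes was 0.347 in G1, 0.322 in S and 0.395 in G2M of the low pigment library. It was 0.325, 0.285 and 0.257 in the same phases of the high pigment library. Ptgds had a rho of 0.264 with the percent of mitochondrial UMIs and −0.242 with that of ribosomal protein UMIs in the low pigment library, and 0.095 and −0.050 in the high pigment library. The part of phase and of these shares in the relation was not tested.

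The genes most like Ptgds across cells, by the mean of both libraries' rhos among all other genes of at least 50 CPM, were Mlana (0.386 in the low and 0.364 in the high pigment library), a melanosome protein, Spp1 (0.352 and 0.308), which encodes osteopontin, Pmel (0.420 and 0.230), which forms the fibrils on which melanin is laid down, Dct, and Atp6v0c (0.341 and 0.296), a subunit of the proton pump of lysosomes and melanosomes. Their ratios of high to low pigment were not alike, from 1.48 for Spp1, 1.39 for Mlana and 1.37 for Dct to 1.06 for Atp6v0c and 0.898 for Pmel. The least alike were Rpl12 (−0.274 and −0.218), a ribosomal protein gene, Set (−0.196 and −0.246), a histone chaperone gene, and Ncl (−0.182 and −0.256), which encodes nucleolin.

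Fabp7 had rhos of mixed sign with the enzymes. With the summed enzymes its rho was 0.020 in the low and −0.020 in the high pigment library, at ranks 836 and 1724 of 3044. With Tyrp1 it was −0.079 and −0.096, at ranks 2985 and 3028 of 3046 and outside the 5th percentile of all genes (−0.061 and −0.054) in both. With Tyr it was 0.076 and 0.040, at ranks 87 and 476 of 3046, above the 95th percentile of 0.065 in the low and below that in the high pigment library. With Dct it was 0.054 and 0.008, at ranks 391 and 945. Cells with 0, 1, 2 and at least 3 Fabp7 UMIs had mean Tyrp1 counts of 14.0, 13.0, 11.9 and 11.8 in the low and 18.0, 17.0, 16.8 and 15.3 in the high pigment library. Mean Dct counts were 44.1, 45.7, 48.4 and 47.0 in the low and 60.1, 60.3, 59.1 and 60.9 in the high pigment library. Fabp7 counts are sparse, and rhos of this size are no finding by themselves.

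The rhos of Fabp7 with Sox10 lay within the 5th to 95th percentile of all genes in both libraries, although both had a higher level in the high pigment library (Sox10 118 and 223 CPM, ratio 1.89, 1.81–1.96). The rho of Fabp7 with Sox10 was −0.014 in the low and 0.023 in the high pigment library, at ranks 2145 and 693 of 3046. Cells with 0, 1, 2 and at least 3 Fabp7 UMIs had mean Sox10 counts of 0.859, 0.855, 0.904 and 0.683 in the low and 1.56, 1.70, 1.59 and 1.56 in the high pigment library. At each Fabp7 count the Sox10 mean was therefore higher in the high pigment library, and within a library it showed no steady trend. Without thinning the rho was 0.075 in the high pigment library. Mean counts in 7500 UMIs were 0.383 and 0.770 for Fabp7 and 0.856 and 1.60 for Sox10, and what size of rho such counts could show was not tested.

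Ptgds had a rho of 0.085 with Sox10 in the low pigment library, rank 3 of 3046, but −0.035 in the high pigment library, rank 2592. The mean Sox10 count went from 0.775 to 1.03 between the lowest and the highest quartile of Ptgds in the low pigment library and went from 1.66 to 1.54 in the high pigment library. With Mitf, the central transcription factor of melanocytes, the rho of Ptgds was 0.032 and −0.093. The sign of both relations thus differed between the libraries, and the difference was not tested. The rho with Sox10 in the high pigment library lay within the 5th to 95th percentile of all genes (−0.057 to 0.052). So did the rho with Mitf in the low pigment library (−0.062 to 0.074).

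**Figure D4:**
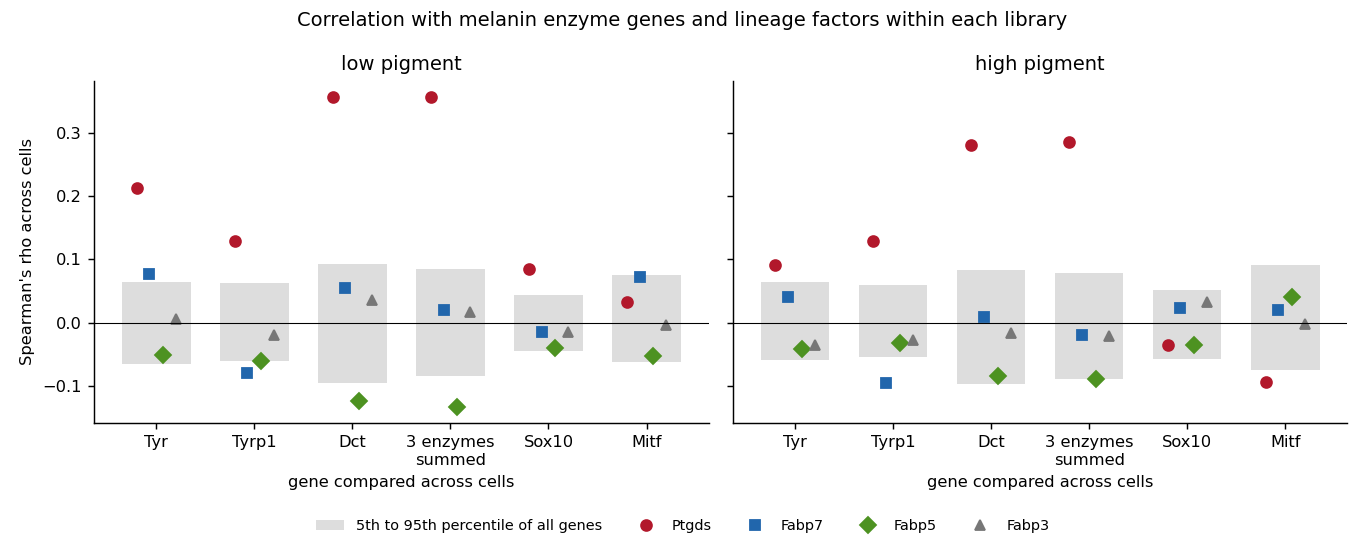
Spearman's rho across cells of the low pigment (left) and the high pigment library (right) between each of the 4 genes and Tyr, Tyrp1, Dct, their sum, Sox10 and Mitf, with grey boxes for the 5th to 95th percentile of all genes of at least 50 CPM. Ptgds lies far above the boxes for Dct and the summed enzymes in both libraries (0.357 and 0.286 for the sum), while Fabp7 lies within or near them and below them for Tyrp1.

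**Figure D5:**
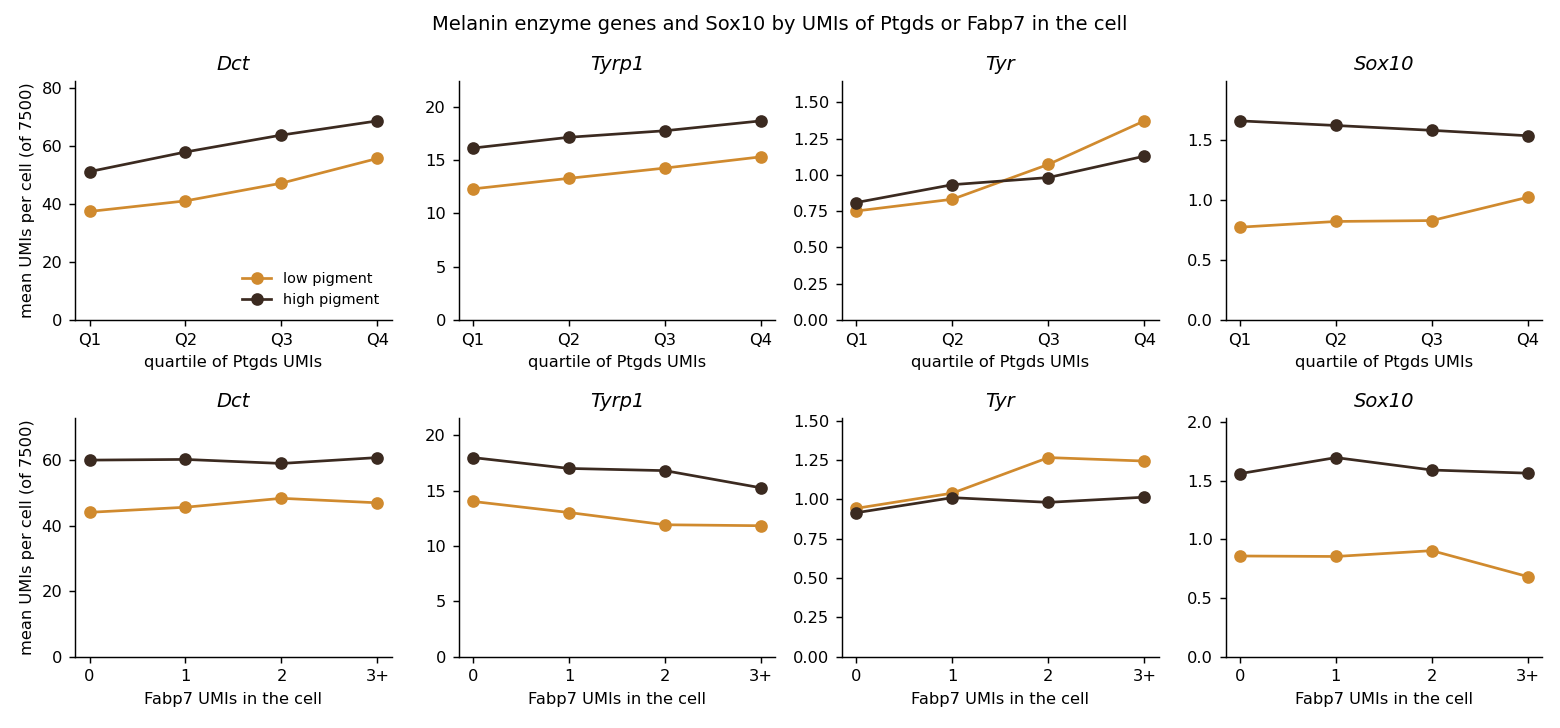
Mean UMIs per cell (of 7500) of Dct, Tyrp1, Tyr and Sox10 in cells grouped by Ptgds (upper row, from the lowest to the highest quartile of cells) or by the number of Fabp7 UMIs (lower row), in the low pigment (orange) and high pigment library (brown). All 3 enzyme genes are higher where Ptgds is higher in both libraries, whereas with Fabp7 Dct is nearly level and Tyrp1 is lower (from 18.0 to 15.3 in the high pigment library).

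Fabp5 had negative rhos with Ptgds and with the summed enzymes. Its rho with the summed enzymes was −0.133 in the low and −0.090 in the high pigment library, at ranks 3012 and 2897 of 3044, though −0.024 in the high pigment library as a Pearson correlation of log2 counts. With Dct alone it was −0.124 and −0.084, with Tyrp1 −0.060 and −0.032, and with Tyr −0.051 and −0.042. Among the single enzymes, Fabp5 lay outside the 5th to 95th percentile of all genes only with Dct in the low pigment library. Its rho with Ptgds was −0.113 and −0.126, among the 3 lowest of all genes by the mean of both, beside Atp6v1f (−0.145 and −0.123) and Cox8a (−0.118 and −0.130). The mean Dct count was 48.0 in the lowest and 42.4 in the highest quartile of Fabp5 in the low pigment library, and 61.7 and 56.6 in the high pigment library. The mean Ptgds count was 14.1 and 11.0 in the same quartiles of the low, and 20.3 and 16.4 in the high pigment library.

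The genes most like Fabp5 were Nme1 (0.192 in the low and 0.140 in the high pigment library), a nucleoside diphosphate kinase gene, Ptma (0.126 and 0.178), which encodes prothymosin alpha, the translation factor gene Eif5a (0.152 and 0.137), the nucleolar gene Npm1 (0.117 and 0.158) and the metallothionein gene Mt1 (0.161 and 0.098). For Fabp7 they were Ifi27 (0.118 and 0.105), Cyb5a (0.105 and 0.113), the apolipoprotein gene Apoe (0.136 and 0.075), Mt1 (0.108 and 0.102) and the synaptotagmin gene Syt4 (0.132 and 0.066). The least alike to Fabp7 were 2410006H16Rik (−0.111 and −0.102), Ybx3 (−0.124 and −0.088) and Rps2 (−0.104 and −0.094).

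For Fabp3, which has few counts, no rho passed 0.114 in either library among the 5 most alike genes. These were Cox6b1 (0.036 and 0.114), Hint1 (0.034 and 0.092), Dad1 (0.065 and 0.060), Lgals1 (0.039 and 0.083) and Dbi (0.049 and 0.071). Among the lowest were Hnrnpa3 (−0.047 and −0.077) and Trip12 (−0.069 and −0.047). Its rhos with the summed enzymes were 0.017 and −0.021 and with Sox10 −0.015 and 0.033, with no steady direction.

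Among themselves the 4 genes had rhos of small size. Apart from Fabp5 with Ptgds, given above, they lay between −0.012 and 0.111 in the low pigment and between 0.007 and 0.024 in the high pigment library. The pair of Ptgds and Fabp7, the genes with more RNA in the high pigment library, had 0.111 in the low and 0.021 in the high pigment library. In cells with 0, 1, 2 and at least 3 Fabp7 UMIs the mean Ptgds count was 11.6, 14.0, 14.9 and 15.9 in the low and 18.0, 17.7, 19.1 and 18.8 in the high pigment library. The share of G1 cells in these groups was 36.7%, 44.6%, 46.8% and 63.4% in the low pigment library. It was 33.7%, 30.9%, 35.7% and 33.6% in the high pigment library, and the part of phase was not tested. Both Fabp7 and Fabp3 were found in 5.58% of low pigment cells, against 4.75% from the product of their shares, and in 10.3% against 10.0% of high pigment cells.

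The counts of called genes in the lists below stand against 10.9% of all genes higher and 23.4% lower, and no list was tested against that background. Of 14 prostaglandin synthesis genes 7 reached 10 CPM, of which 2 were higher, Ptgds itself among them, and 1 was lower (median log2 ratio 0.14, against −0.080 for all genes). Besides Ptgds, Hpgds, the hematopoietic prostaglandin D synthase, was higher, with 35.6 and 56.8 CPM (ratio 1.59, 1.48–1.72). Pla2g6, a phospholipase that frees fatty acids, had 16.8 and 13.1 CPM (ratio 0.779, 0.681–0.890). Ptges3 (1.13), the lipid peroxidase gene Gpx4 (1.10), Ptges2 (0.944) and Akr1b3 (0.940) were called neither. The cyclooxygenase genes, which make the substrate of Ptgds, were at or near 0, with 0 UMIs of Ptgs2 in both libraries and 52 and 43 UMIs of Ptgs1. Of 14 genes for breakdown, transport and reception only Ptgr2 (ratio 0.773) and Abcc4 (0.815) reached 10 CPM, with 1 called lower and 0 higher, a median of −0.33. The prostaglandin D2 receptor gene Ptgdr had 0 UMIs and Ptgdr2 1 UMI in the low and 0 in the high pigment library. Of 7 lipocalin genes, Ptgds alone reached 10 CPM.

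Around the FABPs, uptake and activation genes had 9 of 19 members measured, of which 1 was higher and 2 were lower (median log2 ratio −0.16), near the 10.9% and 23.4% of all genes. Dbi, the acyl-CoA binding protein gene, had 2219 and 3266 CPM (ratio 1.47, 1.46–1.49), and the acyl-CoA synthetase gene Acsl4 had a ratio of 0.782. The transporter gene Slc27a4, Scp2, Acsl1, Acsl3 and Acsl5 had ratios of 1.14, 0.934, 0.932, 0.864 and 0.871 and Scarb1 one of 0.896. Of 5 retinoid binding genes of the same fold only Crabp2 was measured, with 13.2 and 12.4 CPM. PPAR and RXR receptors and their targets had 6 of 13 measured, with 0 higher, 1 lower (23.4% of all genes) and a median of −0.11. Ppard, the receptor to which Fabp5 is known to bring ligands, had 20.96 and 17.5 CPM (ratio 0.835, 0.743–0.938), Plin2, Rxrb and Rxra had ratios of 1.18, 1.14 and 0.921, and Cpt1a, the gate of mitochondrial fatty acid oxidation, was 1.63-fold lower.

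Fatty acid oxidation genes had 19 of 20 members measured of which 8 were lower, against 23.4% of all genes, and 1 was higher (median log2 ratio −0.29). Acaa2 (31.5 and 18.1 CPM), Acads (55.5 and 33.1 CPM), Cpt1a and Decr1 were lowest, at 1.74-fold, 1.67-fold, 1.63-fold and 1.51-fold lower, and the one higher was Cpt1c (11.4 and 15.0 CPM, ratio 1.31). Etfa, Etfdh and Slc25a20 had ratios of 0.981, 0.963 and 0.935. Lipid droplet genes had 8 of 11 measured, 0 higher and 3 lower, against 10.9% and 23.4% of all genes, and a median of −0.13. Plin3 had 120 and 67.3 CPM (1.79-fold lower), Dgat1 was 1.46-fold and Hilpda 1.251-fold lower, and Plin2, Abhd5, Mgll, Fitm2 and Pnpla2 had ratios of 1.18, 1.14, 1.02, 0.956 and 0.874.

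Genes described elsewhere as regulators of Fabp7 or Ptgds had 8 of 12 members measured, of which 2 were higher and 2 lower, against 10.9% and 23.4% of all genes (median log2 ratio −0.07). Mitf (221 and 506 CPM) and Sox9 (27.2 and 48.7 CPM, ratio 1.79) were higher, and the Notch target Hes1 (154 and 34.0 CPM) and Usf1 (ratio 0.699) were lower. Usf2, Nfia, Rbpj and Nfib had ratios of 1.12, 0.973, 0.928 and 0.826. Pou3f2 and Pax6, known to act on Fabp7 in the brain, had at most 1 UMI per library. Of the 4 lineage factors 3 were higher, against 10.9% of all genes, Mitf, Sox10 and Tfap2a (ratio 1.51), and Pax3 had a ratio of 0.883. Of 9 neural crest and glial genes 5 were measured, with Sox10 higher, Nes (ratio 0.750) lower and S100b and Erbb3 at 1.24 and 0.891, for a median of −0.17. Of the melanin enzymes, Dct was called higher (5856 and 8011 CPM, ratio 1.37), and Tyrp1 (1.248, just under the limit) and Tyr were not.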

How the data were processed

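Single-cell RNA data were used: 1 library of low and 1 of high pigment B16 F10 cells. The deposited UMI counts stand in 1 matrix for both libraries. The submitters' processing notes name Cell Ranger 6.1.2 and the build mm10; any equalising of depth on joining is not stated. The authors' deposited cell table gave sort, phase, cluster, the percent of mitochondrial and ribosomal UMIs, and a score per cell for gene sets that it does not name. Its 4036 cells were exactly those that reached 7500 UMIs with less than 10% mitochondrial.

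Counts were summed per library, phase or cluster and divided by the summed UMIs. Levels have exact Poisson, ratios exact conditional binomial and shares exact Clopper-Pearson 95% intervals. Cells were thinned to 7500 UMIs for shares and for Spearman's rho (scipy 1.17.1, numpy 2.4.6). Genes counted as measured at a mean of 10 CPM, and as compared by rho at 50 CPM. Scrublet (scanpy 1.11.5, expected rate 0.06) marked 18 low and 15 high pigment cells as doublets, which were kept, and left out as an alternative. The steps were tested on simulated data. Alternatives changed the scaling, the cells, the phase, the thinning, the coefficient and the filter on low counts. Members, gene lists and comparisons were chosen with earlier results of these data known. Named genes were all members, the 5 most and 3 least alike genes by mean rho, and in each list all measured genes up to 5, otherwise up to 4 at each end of the ratio; a few further list genes were named after their values were seen. A few genes that this rule names are not reported here.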

Additional observations from a re-analysis of the deposited data

Results flagged for a closer look

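The count matrix held barcodes that the authors' cell table leaves out, and these also carried RNA of the 4 genes. In the 1086 such barcodes of the low pigment library, with 2608588 UMIs in all, Ptgds had 1960 CPM, Fabp7 51.0 CPM, Fabp5 790 CPM and Fabp3 17.3 CPM. In the 696 such barcodes of the high pigment library, with 2503347 UMIs, Ptgds had 3105 CPM, Fabp7 116 CPM, Fabp5 823 CPM and Fabp3 27.6 CPM. Ptgds and Fabp7 were thus higher in the high pigment library here too, and Ptgds was above its level in the table's cells in both libraries. The left-out sets were unlike, with 434 low and 5 high pigment barcodes over 50% mitochondrial. The 434 had 120 CPM of Ptgds, 56.5 CPM of Fabp5 and 3 UMIs of Fabp7. Under 10% mitochondrial, Fabp7 had 79.8 CPM (63.1–99.6) in 499 low and 130 CPM (114–147) in 541 high pigment barcodes. Both were above its level in the table's cells. At 10% mitochondrial or more, Fabp7 had 33.7 CPM (25.4–43.9) in 587 low and 79.0 CPM (59.3–103) in 155 high pigment barcodes. Fabp5, below its level in the table's cells over all left-out barcodes, divided by mitochondrial share: in the low pigment library it had 1226 CPM (1157–1297) in the 499 barcodes under 10% and 529 CPM (494–566) in the 587 others, and in the high pigment library 895 CPM (852–940) in 541 and 632 CPM (574–694) in 155 barcodes. No control library was sequenced, and the values over all left-out barcodes stand far above the 3 UMIs that a count of 0 allows (1.15 and 1.20 CPM). What the left-out barcodes hold was not tested.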

How the results depend on the processing

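Over whole libraries and within phases no called member turned to the other direction, and the cause of each shift was not tested. Within clusters, per cell unscaled, Fabp7 turned in cluster 2 and Ptgds in clusters 2 and 3, as given above. Ptgds fell short of the 0.32 limit per cell unscaled, and Fabp3 passed it in G1, in G2M and with the median gene set to 1. The Ptgds ratio was 1.59 with the median gene set to 1, 1.47 with equal weight for every cell, 1.19 per cell unscaled, and 1.49, 1.65 and 1.52 in G1, S and G2M. The Fabp7 ratio was 1.67 per cell unscaled and 1.72, 1.97 and 2.41 in G1, S and G2M. The Fabp5 ratio, below 1 by total UMIs, was 1.03 with the median gene set to 1, 1.02 in G2M and 0.771 per cell unscaled, and the Fabp3 ratio was 0.939 per cell unscaled. Of 32 such ratios 18 moved by less than their counting interval. Genes past the 0.32 log2 limit numbered 1321 higher and 3146 lower with a mean of at least 2 CPM, and 2719 and 6291 with no filter; at 1.5-fold they numbered 513 and 1360, and 1576 and 3953.

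Shares of cells with a UMI depend on depth by construction. Without thinning, low and high pigment shares were 99.8% and 100.0% for Ptgds, 49.6% and 64.2% for Fabp7, 99.9% and 99.9% for Fabp5, and 33.6% and 31.8% for Fabp3. At 5000 UMIs they were 97.1% and 99.3%, 20.8% and 38.6%, 97.8% and 97.7%, and 12.6% and 14.4%.

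The rho of Ptgds was 0.024 with Sox10 in low pigment G2M cells and 0.325 with the summed enzymes in high pigment G1 cells. The rho of Fabp7 with Sox10 was 0.075 without thinning in the high pigment library. With the enzymes it was −0.039 in S and 0.092 in G2M of the low and −0.063 in S of the high pigment library. Fabp5 with the enzymes had −0.183 in G1 and −0.061 in G2M of the low pigment library, and −0.139 in G1 and −0.024 as Pearson's r in the high pigment library. Fabp3 had 0.113 with Sox10 in high pigment S cells, and with the enzymes −0.037 without thinning and 0.065 in G2M of the low, and 0.023 in G1 of the high pigment library. Values within S and G2M were chosen after seeing the data. No paired analysis was possible because each group is 1 library and no replicate could be left out. Fabp7 and Fabp3, with medians of 0 UMIs per thinned cell, limit what rhos can show.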
